A study of Mus musculus with 2 samples.

Results

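The cells described here are F13a1 and Irf8 positive monocyte progenitors of mouse bone marrow, 747 of 9632 cells. They were chosen by their own counts of 6 genes, in unique molecular identifiers (UMIs, which count captured RNA molecules). A cell had at least 3 UMIs of F13a1 and 2 of Irf8, fewer than 5 of Lgals3, and, per 10000 UMIs of the cell, less than 20 of Elane and less than 20 of S100a8 and S100a9 together. The first pair of genes marks the monocyte lineage, and the limits on the others set aside cells further along towards monocytes (Lgals3) or neutrophils (Elane, S100a8, S100a9). There were 266 such cells among 4702 from the WT library and 481 among 4930 from the KO library.

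Each library came from marrow cells of transplanted mice 8 weeks after transplantation. Donor marrow was wild-type (WT) or lacked Phf6 (KO), and in both cases carried a vector with the RUNX1-S291fs mutation and green fluorescent protein (GFP), so the WT cells are also RUNX1-mutant cells. GFP-positive cells that stained for no lineage marker (Lin-) were sorted and profiled with droplet 3′ single-cell RNA sequencing, giving 1 library per genotype. The labels used here do not say how the Phf6 allele was made, how many recipients were pooled, or their age and strain, and every level below is that of a sorted fraction.

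Monocytes arise from myeloid progenitors through stages at which Irf8, a transcription factor, favours the monocyte and dendritic cell fates over the neutrophil fate. Along this path the cells lose the stem cell antigen CD34 and the growth factor receptors Kit and Flt3, and take up Ly6C, the chemokine receptor CCR2 and the receptor of colony-stimulating factor 1. Phf6 encodes a chromatin-bound protein and RUNX1 a transcription factor of blood formation, and both genes are mutated in myeloid leukaemias.

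The WT library held 131667969 UMIs over 5287 barcodes and the KO library 120408100 over 5260. The filters (500 detected genes or more, at most 10% of UMIs on mitochondrial genes) removed 51 and 534 WT and 32 and 298 KO barcodes. The libraries shared 10 barcodes, none of them among the progenitors. The progenitors had medians of 33889.5 UMIs and 5798 genes per cell in WT and of 32737 UMIs and 5825 genes in KO. Doublets were not removed. Among the cells with the highest scores of a doublet caller (224 WT and 221 KO barcodes, a number set by an assumed rate) were 24 WT and 34 KO progenitors. The caller's own cutoff called 5 WT and 88 KO barcodes. With 1 library per genotype there is no replicate. No difference between WT and KO was therefore tested, the genotype cannot be told apart from anything else that differed between the libraries, and intervals are 95% intervals for counting error only.

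The 5 markers set for these cells were all higher in them than in the 7179 cells without F13a1 and Irf8 at the minimum, in both libraries. The summed counts are given as UMIs per 1000000 (CPM), and pairs are written as WT/KO. F13a1, which encodes the A subunit of coagulation factor XIII, stood at 1002 CPM in WT and 1032 CPM in KO, against 58.1/81.3 CPM in the remaining cells. Irf8 stood at 385 CPM in WT and 310.4 CPM in KO, against 22.1/29.2 CPM. Both genes are in the rule, so these levels describe the choice of cells. Ly86, which encodes MD-1, a partner of the surface receptor CD180, stood at 238 CPM in WT and 262 CPM in KO, against 10.7/23.8 CPM. Slpi, a secreted inhibitor of leukocyte proteases, stood at 1003 CPM in WT and 1169 CPM in KO, against 227/245 CPM. Ly6c2, which encodes the monocyte surface antigen Ly6C, stood at 161 CPM in WT and 185 CPM in KO, against 46.8/45.8 CPM. Of the 5, Ly6c2 was the one least set apart from the remaining cells. All 5 were higher still, in both libraries, in the cells with F13a1, Irf8 and 5 or more Lgals3 UMIs. On GRCm38, F13a1 lies on the minus strand of chromosome 13 (36867178 to 37050244) and Ly86 on the plus strand of the same chromosome (37345208 to 37419036), while Irf8 lies on the plus strand of chromosome 8 (120736358 to 120756694).

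Ly6c2 RNA was detected in a smaller share of the progenitors than of the F13a1 and Irf8 cells set aside by the Lgals3 limit or by the Elane limit. With every cell thinned to 5000 UMIs, 83 of 266 WT progenitors (31.2%, 25.7% to 37.1%) and 180 of 481 KO progenitors (37.4%, 33.1% to 41.9%) had a Ly6c2 UMI. Unthinned, the shares were 57.9% and 59.0%. Erythroid cells, which should lack Ly6C, had thinned shares of 10.1% in WT and 1.75% in KO, at higher median depths of 74240 and 50131 UMIs before thinning. Cells with F13a1, Irf8 and 5 or more Lgals3 UMIs had thinned shares of 91.7% and 86.3%. F13a1 and Irf8 cells set aside by the Elane limit had 79.8% in WT and 75.7% in KO. B lineage cells, a second reference, had 19% (11.8% to 28.1%) in WT and 13.95% (5.30% to 27.9%) in KO at median depths of 19516.5 and 6476.5 UMIs, and 20 and 15 of them under 5000 UMIs were left out. The progenitors' share was above both references, but in WT its interval overlapped that of the B lineage cells. A cell without a Ly6c2 UMI is not shown to lack the RNA.

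The genes highest in the progenitors over the remaining cells, among those at 100 CPM or more, were ranked by the smaller of the log2 ratios in WT and KO, as a description of the chosen cells. Beside F13a1, Irf8 and Ly86, the first 15 held the chemokine receptor gene Ccr2 (176/219 CPM against 15.4/29.5 CPM). Csf1r, the receptor of colony-stimulating factor 1, was at 117/128 against 9.28/18.98 CPM. Lyz2, which encodes lysozyme, was at 1861/2497 against 241/437 CPM. The membrane protein genes Ms4a4c and Ms4a6c were at 68.8/141 and 695/713 CPM, against 3.78/14.2 and 68.96/113 CPM. Il6st, the shared signalling subunit of the interleukin 6 receptor family, was at 105/117 against 12.1/24.4 CPM. Others of the 15 are better known from other tissues. Apba1, an adaptor protein of synapses, was at 256/277 against 8.17/16.6 CPM. Gria3, a glutamate receptor subunit, was at 356/356 against 28.7/34.2 CPM. Nrg2, a neuregulin growth factor, was at 182/192 against 31.2/33.3 CPM. Hpse, which encodes heparanase, was at 93.6/115 against 6.55/14.8 CPM. The remaining 2 were Tifab and Emb. At 20 CPM or more the first 15 would also have held Trem2, a lipid receptor of macrophages, at 66.9/76.3 against 3.697/5.85 CPM, and Nrp1, the receptor neuropilin 1, at 90.3/85.1 against 5.03/8.28 CPM, with Met, Itga1, Stxbp6, Serpinf1, Lpl and Klrb1f. Trem2 and Nrp1 were higher still in the F13a1 and Irf8 cells with 5 or more Lgals3 UMIs (202/225 and 157/182 CPM). So were, in both libraries, all of the first 15 at 100 CPM or more except Gria3, Nrg2 and Emb. Gria3 and Nrg2 were lower there in both libraries, and Emb in KO only. The ranking thus sets the progenitors apart from the remaining cells and not from the Lgals3-rich cells.

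The promoters of Hpse and Il6st are shown because they hold the letters of a composite element that PU.1 and Irf8 are known to bind together, GGAA and GAAA with 2 bases between them on either strand. Promoters are the 250 bases before the gene start from RefSeq (GRCm38.p6), which listed 12 of the first 15 genes at 100 CPM, and each window is written along the gene's strand with the matching letters in capitals (TTTC first where the match is on the other strand). The Hpse window is at chr5:100719757-100719826 on the minus strand, with the match 80 to 71 bases before the start. The Il6st window is at chr13:112463820-112463885 on the plus strand, with the match 224 to 215 bases before the start.
Hpse: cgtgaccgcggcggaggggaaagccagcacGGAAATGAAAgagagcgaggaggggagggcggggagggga
Il6st: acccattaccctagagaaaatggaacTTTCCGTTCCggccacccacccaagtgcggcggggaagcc
The element was thus found in 2 of 12 promoters (16.7%), against 131 of the 5056 promoters of genes at 20 CPM or more in these cells (2.59%) and 724 of all 27025 promoters (2.68%). The search was added after results were seen, and 2 promoters are too few to read a share from. A match is a match of letters, and the absence of one says only that these letters are not in the window.

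The progenitors lay between 2 other sets of F13a1 and Irf8 cells, those set aside by the rule for Lgals3 (1040 cells) and for Elane (666 cells), on some genes and outside both on others. The levels in this paragraph are descriptions, since the sets were cut from the same counts. Mpo, which encodes myeloperoxidase and is not in the rule, was at 2447/2797 CPM in the progenitors, 1067/1047 in the Lgals3-rich set and 4703/5009 in the Elane-rich set. Ccr2 ran the other way, at 176/219, 538/655 and 96.3/120.1 CPM in the same order of sets. Lyz2 was at 1861/2497, 9599/9614 and 1183/1353 CPM. So the progenitors held less Mpo than the Elane-rich set and less Ccr2 and Lyz2 than the Lgals3-rich set. Klf4, a transcription factor of monocyte maturation, was at 26.04/16.9 CPM against 184/171 in the Lgals3-rich set. Fn1, which encodes fibronectin, was at 14.7/10.4 against 209.5/136 CPM there, and Ahnak, a large scaffold protein, at 32.1/31.5 against 226/221 CPM.

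Of 18 genes of the stem and early progenitor list at 20 CPM or more in the progenitors, 16 were higher there than in both other sets in each library. The minimum was set in the progenitors alone, so genes of the list high only in the other sets could not enter this count. It therefore favours the progenitors, and the share of all genes above both sets was not computed. Pbx3 was not, at 69.5/143 CPM against 91.6/161 CPM in the Lgals3-rich set. Flt3, the receptor of multipotent and dendritic progenitors, was at 39.6/30.9 CPM, against 9.87/11.5 in the Lgals3-rich and 7.15/4.45 in the Elane-rich set. Cd34 was at 320.2/294, 103/114 and 209.8/196 CPM. Angpt1, which encodes angiopoietin 1, was at 160.2/145, 108/112 and 52.1/18.8 CPM, and Meis1, a homeobox gene of stem cells, at 106/103, 62.4/73.9 and 42.6/24.4 CPM. The progenitors were above both other sets for each of these 4 genes in each library, though Angpt1 and Meis1 were several times higher in the remaining cells (1003/1293 and 472/591 CPM). After thinning to 5000 UMIs, 17.7% of WT (13.3% to 22.8%) and 12.5% of KO progenitors (9.66% to 15.8%) had a Flt3 UMI, against 3 of 189 erythroid cells in WT (1.59%) and 0 of 57 in KO, which allows a share of up to 5.26%. Unthinned, the progenitors' shares were 47.4% and 39.9%. The genes were also counted within single cells, doublets included. Flt3, Csf1r and Kit each had a UMI in 90 of 266 WT (33.8%, 28.2% to 39.9%) and 142 of 481 KO progenitors (29.5%, 25.5% to 33.8%), unthinned. In the Lgals3-rich set these shares were 4.73% and 4.49%, at lower median depths of 27976.5 and 28317.5 UMIs, and in the Elane-rich set 14.95% and 8.99%, at 34620 and 34779 UMIs. Erythroid cells, at 74240 and 50131 UMIs, had all 3 in 3 of 189 cells in WT (1.59%, 0.329% to 4.57%) and in 0 of 57 in KO, which allows up to 5.26%.

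**Figure D1:**
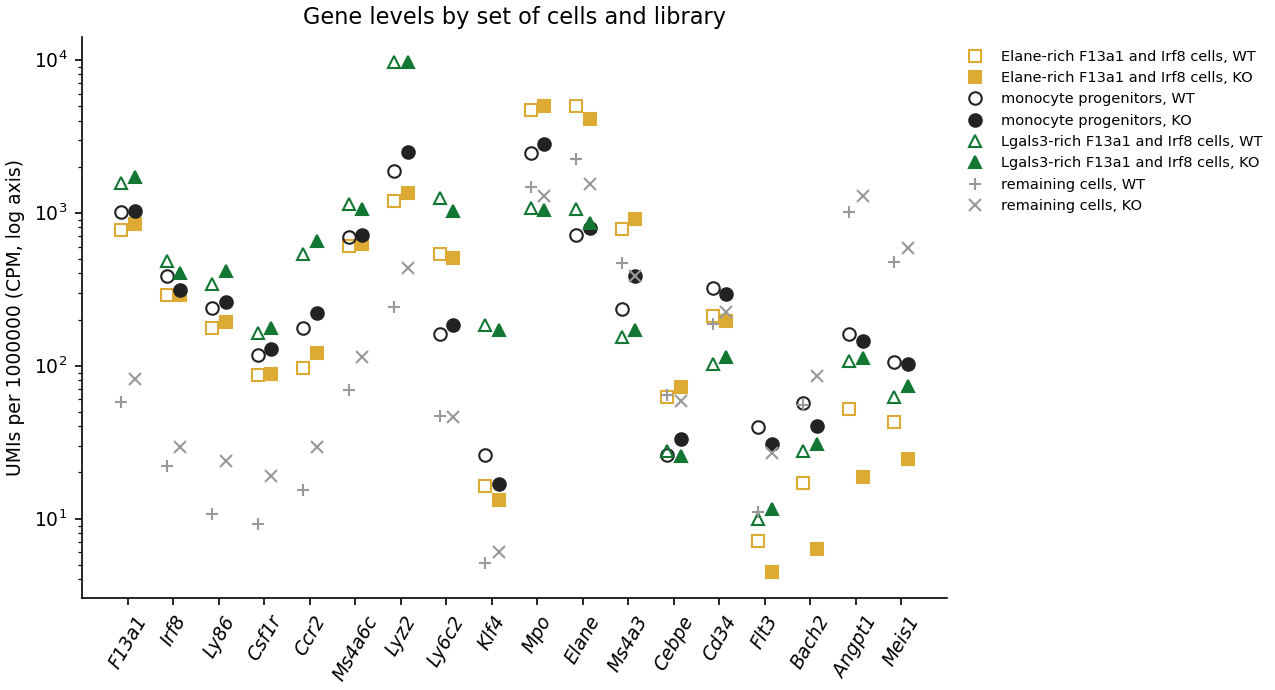
Level of 18 genes, in UMIs per 1000000 on a log axis, in the monocyte progenitors (circles), the Lgals3-rich (triangles) and Elane-rich (squares) sets of F13a1 and Irf8 cells and the remaining cells (crosses). Open symbols and upright crosses are the WT library, filled symbols and diagonal crosses the KO library; each point is 1 summed library, with no replicate. The circles lie between the squares and triangles for Mpo and Lyz2 and above both for Cd34, Flt3, Angpt1 and Meis1.

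The Elane and Lgals3 limits of the rule cut a range of cells rather than a gap, and levels at the F13a1 and Irf8 limits were less even. Just inside the Elane limit, at 15 to under 20 per 10000, were 44 WT and 86 KO progenitors with Mpo at 3842 and 3922 CPM. Just outside, at 20 to under 25, were 36 and 50 cells with Mpo at 3884 and 4227 CPM. At 4 Lgals3 UMIs were 6 WT and 25 KO progenitors with Ly6c2 at 509 and 545 CPM, and at 5 UMIs, outside, 16 and 17 cells with 664 and 473 CPM. At 2 Irf8 UMIs were 16 and 32 progenitors with Ly86 at 36.9 and 116 CPM, and at 1 UMI, outside, 24 and 33 cells with 13.1 and 107 CPM. At 3 F13a1 UMIs were 7 and 12 progenitors with Ccr2 at 44.5 and 92.8 CPM, and at 2 UMIs, outside, 9 and 18 cells with 0 and 53.7 CPM. Ly86 at this limit was at 122 CPM inside and 0 outside in WT, and at 57.97 and 64.8 CPM in KO. Slpi was at 223/157 CPM in progenitors at 3 F13a1 UMIs and 132/511 CPM in those at 2 Irf8 UMIs. Ly6c2 was at 16.7/8.70 and 8.78/35.7 CPM. These Ly6c2 levels were all below those of the remaining cells, as were those of Slpi except in KO at 2 Irf8 UMIs. Ly86 was above them. No cell was set aside by the S100a8 and S100a9 limit once the others had been applied.

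The progenitors made up 5.66% of WT cells (266 of 4702, 5.01% to 6.36%) and 9.76% of KO cells (481 of 4930, 8.94% to 10.6%), a difference of 4.10 percentage points (3.04 to 5.16). The sets beside them differed less. The Lgals3-rich set made up 11.2% and 10.4%, and the Elane-rich set 6.83% and 6.998%. Elane, which divides the progenitors from the Elane-rich set, was itself lower in KO outside the progenitors. Its log2 ratios of KO over WT were -0.31 in the Lgals3-rich set, -0.29 in the Elane-rich set and -0.54 in the remaining cells. The part of Elane in these shares was not tested, and the share of the Elane-rich set was computed at this limit only. Of the F13a1 and Irf8 cells alone, the progenitors were 23.9% in WT (266 of 1115) and 35.9% in KO (481 of 1338). These shares are of sorted GFP-positive, lineage-negative cells of 1 library each, and the sort removes an unknown part of the maturing cells. Remaining KO cells were shallower than remaining WT cells (17910.5 against 22703 UMIs in the median). With cells thinned to 10000 UMIs before the rule and shallower cells left out (4183 WT and 4279 KO cells stayed), the shares were 6.84% and 8.86%, a difference of 2.02 points (0.875 to 3.17). With the Elane limit at 10 the shares were 3.72% in WT and 6.09% in KO, a difference of 2.36 points. At 40 they were 8.53% and 13.8%, a difference of 5.22 points. Without cells that had 5 or more UMIs over the markers of other cell types, 3 WT and 24 KO progenitors were left. They made up 0.0638% and 0.487% of cells, a difference of 0.423 points (0.221 to 0.663). This limit counts raw UMIs, which deep cells reach easily. B cell markers alone, mostly Ighm, reached 5 UMIs in 192 WT and 231 KO progenitors.

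**Figure D2:**
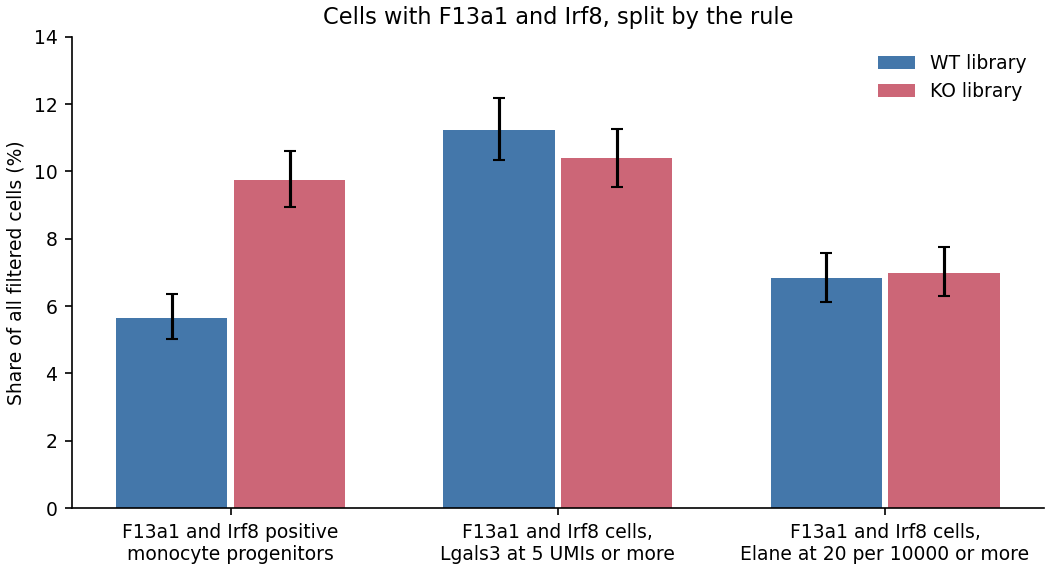
Share of all filtered cells, in percent, that fell into each of 3 sets of F13a1 and Irf8 cells in the WT (blue) and KO (red) library; bars carry exact 95% binomial intervals for counting error only. The progenitors stand at 5.66% and 9.76%, while the Lgals3-rich (11.2% and 10.4%) and Elane-rich (6.83% and 6.998%) sets have overlapping intervals.

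Among the progenitors Mpo, a gene outside the rule, ranged from 0 to 95.9 UMIs per 10000. They were ordered by it over both libraries and cut into 3 equal parts, which are ranges and not types. The low part (up to 18.9 per 10000) held 99 WT and 150 KO cells, the middle part 88 and 161, and the high part (from 33.5) 79 and 170. Low-Mpo cells were 37.2% of WT (31.4% to 43.3%) and 31.2% of KO progenitors (27.1% to 35.5%), and the intervals overlap. Elane, which the rule used, was at 213/246, 797/817 and 1292/1194 CPM in the 3 parts, so the parts are described and not tested.

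Granule genes followed Mpo in both libraries. Ms4a3, a membrane protein gene of granulocyte and monocyte progenitors, was at 65.5/130.3 CPM in the low part, 264/404 in the middle and 429/571 in the high part. Cebpe, a transcription factor of granule formation, was at 6.57/11.1, 27.9/32.4 and 50.3/50.8 CPM. The serine protease gene Ctsg was at 991/1107, 2128/2223 and 2701/2893 CPM. Each of the 3 was higher from part to part in WT and in KO. Ly6c2 had the same order, at 98.3/119, 144/186 and 266/236 CPM. The interferon gamma receptor gene Ifngr1 did as well, at 106/121, 159/167 and 219/209.7 CPM. The 9 measured genes of the primary granule list other than Elane had a median log2 ratio of the high over the low part of 1.34 in WT and 1.33 in KO, with Mpo itself, the ordering gene, among them.

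Genes of early progenitors and of dendritic cells had the opposite order. Flt3 was at 66.3/61.7 CPM in the low part, 32.1/25.4 in the middle and 12.8/12.3 in the high part. Bach2, a transcriptional repressor, was at 113/93.9, 31.5/26.1 and 12.8/13.1 CPM. Angpt1 was at 259/249, 142/146 and 49.5/62.05 CPM. All 3 were lower from part to part in each library. Cd209a, a lectin gene of monocyte-derived dendritic cells and their precursors, was at 49.04/53.2 CPM in the low part and at 3.94/2.73 and 4.04/1.16 in the others. It came from few cells: 18 WT progenitors with 3 or more UMIs held 156 of its 203 UMIs, 17 of them in the low part, and 22 KO progenitors held 230 of 273, 21 of them in the low part. Cd74, the invariant chain of MHC class II, was at 15.3/44.7 CPM in the low and 0.734/3.48 CPM in the high part. The runt-family gene Runx2 was at 322/289 CPM in the low and 133/159 in the high part, and the transcription factor gene Tcf4, known from plasmacytoid dendritic cells, at 225/266 and 111/129 CPM. Siglech, a marker of those cells, was at 0.827/1.21 CPM over all progenitors.

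Cd34 and Csf1r differed less over the same range. Cd34 was at 312/306 CPM in the low part and 325/284 in the high part. Csf1r was at 124/152 and 116/113 CPM, and Irf8 at 460.2/375 and 355/284 CPM. The order by Mpo therefore separated Flt3 and granule genes far more than Cd34, Csf1r or Irf8.

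**Figure D3:**
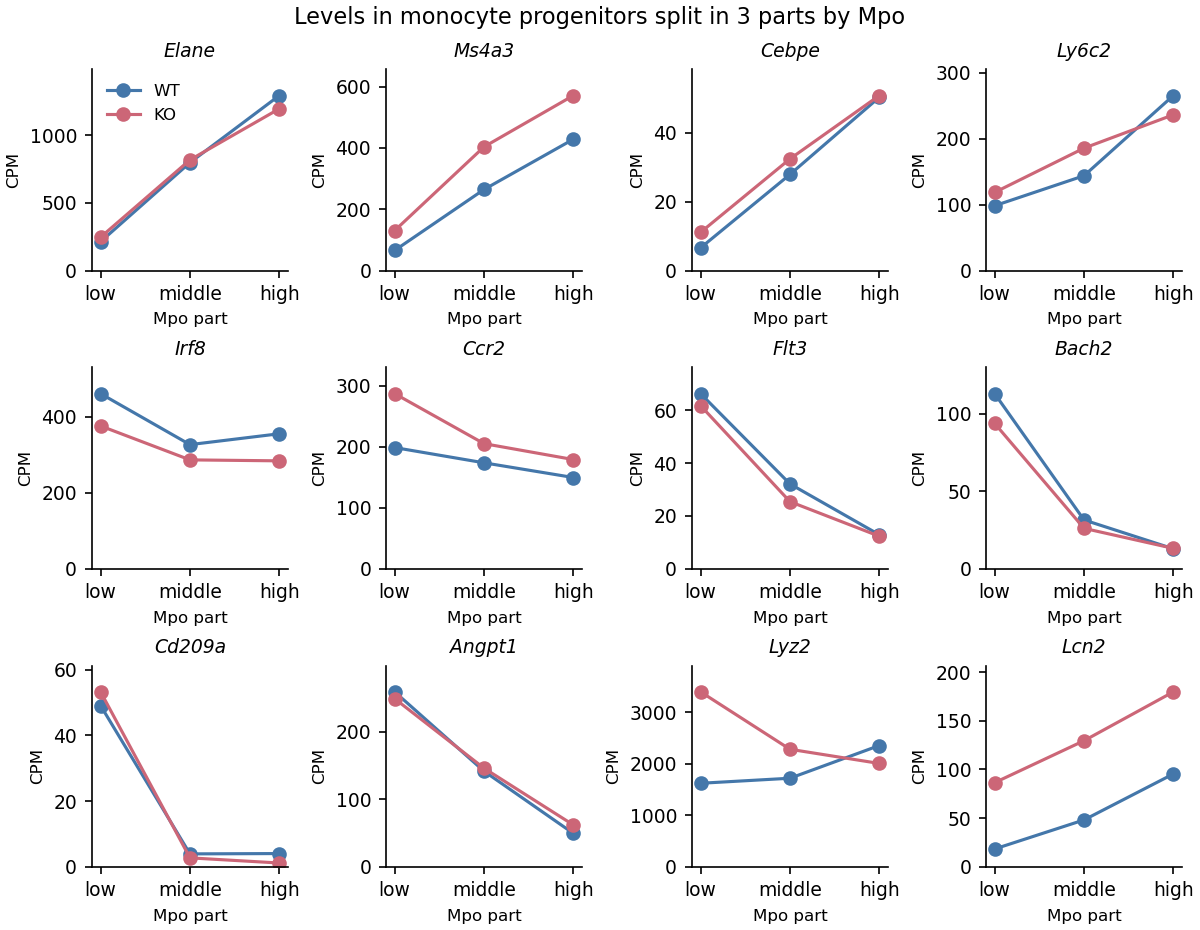
Levels (UMIs per 1000000, linear axes from 0) of 12 genes in the low, middle and high Mpo parts of the monocyte progenitors, with the WT library in blue and the KO library in red; each point is a sum over 79 to 170 cells of 1 library. Elane, Ms4a3, Cebpe and Ly6c2 are higher with more Mpo and Flt3, Bach2 and Angpt1 lower in both libraries, while Lyz2 is highest in the high part in WT and in the low part in KO.

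Markers of other cell types were found in the progenitors to different extents. Neutrophil progenitor markers, Elane and Mpo among them, had 20 or more UMIs in 258 of 266 WT and 471 of 481 KO cells. Stem and multipotent progenitor markers had 5 or more UMIs in 145 and 263 cells, B cell markers in 192 and 231, and maturing neutrophil markers, with S100a8 and S100a9 of the rule among them, in 82 and 317. The 8 erythroid markers summed to 176 CPM in WT and 28.1 CPM in KO progenitors (1736 and 549 in the remaining cells), and 11 WT and 5 KO progenitors had 5 or more of their UMIs. Car1, an erythroid carbonic anhydrase, was at 37.1/0.422 CPM, and in WT nearly all of it lay in the low Mpo part (96.2/0 CPM there). The 7 eosinophil markers summed to 271 and 6.21 CPM, and 2 WT cells held 2318 of the 2389 Prg2 UMIs of the WT progenitors (Prg2 encodes eosinophil major basic protein). Of the 8 megakaryocyte markers, which summed to 199 and 309 CPM, Pf4, platelet factor 4, had 926 of 1384 UMIs in 3 WT cells and 3192 of 3986 in 5 KO cells. The 8 mast cell and basophil markers summed to 173 and 335 CPM, and 1 KO cell held 801 of 1024 Mcpt8 UMIs (Mcpt8 encodes a basophil protease). The 8 dendritic cell markers summed to 65.1 and 84.9 CPM, and the 8 B cell markers to 220.1 and 164 CPM, mostly Ighm (168/109.7), with Cd79a at 1.34/1.02 CPM. Of the 8 macrophage and stroma markers, 3 in WT (C1qb among them) and 1 in KO (C1qc) had no UMI. Ngp, a late neutrophil granule gene, was at 0.31/0.362 CPM.

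Phf6 was lower in the KO library, as its label says. In the progenitors it was at 37.2 CPM in WT and 15.1 CPM in KO (360 and 251 UMIs), a log2 ratio of KO over WT of -1.30 (-1.54 to -1.06). It was not absent from KO, and since the deleted part of the gene is unknown from the labels, 3′ counts cannot say how much intact transcript remained. The gene is on the plus strand of the X chromosome (52912266 to 52956943, GRCm38). Runx1 was at 985 CPM in WT and 1205 CPM in KO, a log2 ratio of 0.29 (0.26 to 0.33), and whether transcripts of the vector are counted in it was not tested. In the low Mpo part the Runx1 ratio was 0.55 (0.50 to 0.61) and in the high part 0.06 (-0.01 to 0.13).

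Of 6295 genes at a mean of 20 CPM or more in the progenitors, 75 were at least 1.5-fold higher in KO (1.19%) and 35 at least 1.5-fold lower (0.556%), 110 in either direction (1.75%). The median log2 ratio was 0.02. At 100 CPM or above, Pbx3 led the genes higher in KO. Pbx3, a homeobox partner of Hox and Meis proteins, was at 69.5 CPM in WT and 143 CPM in KO, with a ratio of 1.04 (0.92 to 1.17). Ms4a4c followed at 68.8 CPM in WT and 141 CPM in KO, with 1.04 (0.91 to 1.16). Next came Pim1, a kinase gene induced by cytokines, at 93.8 CPM in WT and 172 CPM in KO, with 0.87 (0.77 to 0.98). All 3 passed 1.5-fold under each of the 17 alternatives computed for them. The median progenitor held 1 Pbx3 UMI in WT and 3 in KO, and the top cells held 55 and 36. Ctsc, the protease that activates granule serine proteases, was at 113 CPM in WT and 193 CPM in KO (0.78), Ms4a3 at 236 CPM in WT and 387 CPM in KO (0.72), and Fyb, an adaptor of immune receptor signalling, at 144 CPM in WT and 234 CPM in KO (0.70). Below 1.5-fold, the ratio of Ctsc was 0.50 and that of Ms4a3 0.57 with the cells thinned to 10000 UMIs before the rule, Ms4a3 0.54 with the Mpo parts weighted alike, and Fyb 0.50 with looser F13a1 and Irf8 minimums.

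Cpa3 and Pf4 were also among the 12 highest, and both are markers of other cells. Cpa3, a mast cell carboxypeptidase gene also transcribed in early progenitors, was at 103 CPM in WT and 172 CPM in KO, with a ratio of 0.74 (0.63 to 0.84), or 0.55 with looser minimums. The median progenitor held 0 Cpa3 UMIs in each library, and the top cells held 55 and 141. Pf4, at 143 CPM in WT and 240.2 CPM in KO with a ratio of 0.75, rested on the few cells named above, and its ratio turned to -0.08 with the highest doublet scores removed. Fut8 (0.59), Cebpb (0.58), Adgrl4 (0.58) and Ifitm3 (0.57) made up the 12, at or just under the 1.5-fold line, and Fut8 passed it under 7 of 17 alternatives.

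The lowest of the genes at 100 CPM or more was Prg2, at 247 CPM in WT and 4.64 CPM in KO, which rests on the 2 WT cells above. With the highest doublet scores removed the Prg2 ratio was -0.45 in place of -5.73. Prdx2, a peroxiredoxin abundant in red cells, was at 222 CPM in WT and 138 CPM in KO, a ratio of -0.68 (-0.77 to -0.60). It was -0.45 with the highest doublet scores removed and -0.43 without cells that had 20 or more UMIs of erythroid or other foreign markers, both under 1.5-fold. The erythroid marker sums above differed the same way, and their part in the ratio was not tested. Atrnl1, an attractin-like membrane protein gene, was at 187 CPM in WT and 124 CPM in KO, a ratio of -0.60 (-0.69 to -0.51), or -0.36 with thinning before the rule. No other of the 12 lowest passed 1.5-fold. Bcl2, the survival factor, was at 210.3 CPM in WT and 151 CPM in KO (-0.48), Dkc1, the pseudouridine synthase dyskerin, at 157 CPM in WT and 114 CPM in KO (-0.47), and Hspa1a, an inducible heat shock protein gene, at 250.3 CPM in WT and 185 CPM in KO (-0.43). The histone genes Hist1h2ae and Hist1h2ap (-0.46 and -0.41) have near-identical copies between which reads can be split.

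**Figure D4:**
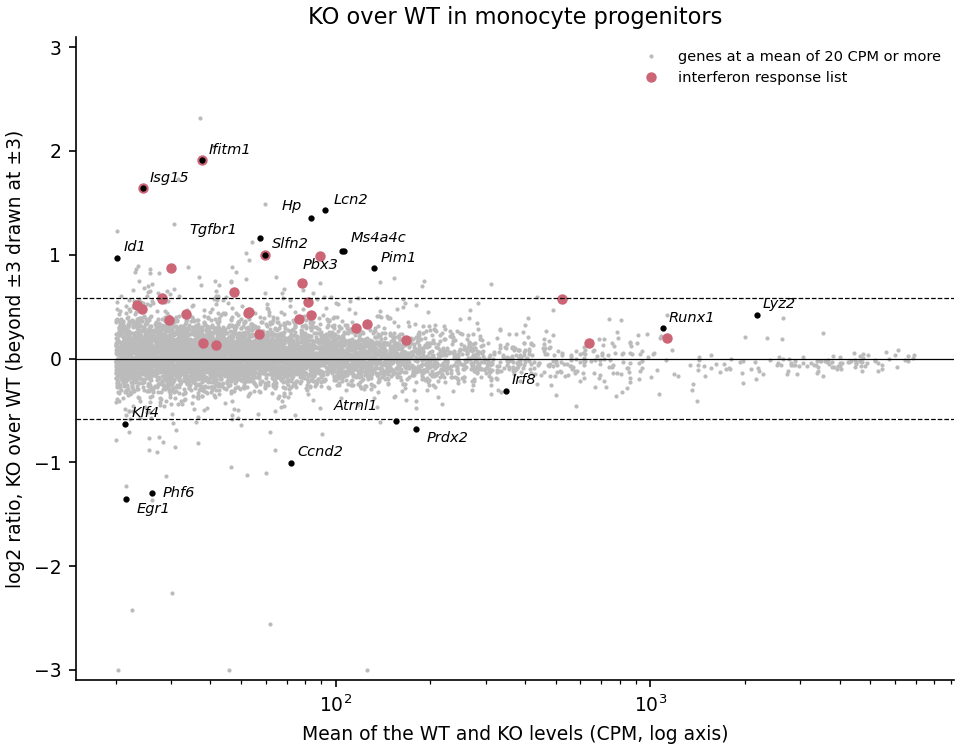
log2 ratio of KO over WT in the monocyte progenitors against the mean level of each of the 6295 genes (grey), with the 27 measured interferon response genes in red and named genes labelled; dashed lines mark 1.5-fold, and ratios beyond 3 in size are drawn at 3. All red points lie above 0, and Ifitm1 (1.91) and Isg15 (1.64) are the highest of them.

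Of the transcription factors of monocyte, granulocyte and dendritic cell fate, 31 of 48 were measured (Irf8 left out as a gene of the rule), 2 were higher and 2 lower past 1.5-fold (1.19% and 0.556% of all genes), and the median ratio was 0.11. Egr1, an immediate early gene linked to monocyte differentiation, was at 31.00 CPM in WT and 12.2 CPM in KO, a ratio of -1.35 (-1.61 to -1.09). Klf4 was at 26.04 CPM in WT and 16.9 CPM in KO, a ratio of -0.63 (-0.88 to -0.37). In the other direction Id1, an inhibitor of basic helix-loop-helix factors, was at 13.6 CPM in WT and 26.8 CPM in KO with 0.97 (0.69 to 1.26), and Irf1, an interferon-induced factor, at 23.6 CPM in WT and 37.5 CPM in KO with 0.67 (0.45 to 0.90). Egr1 and Id1 passed 1.5-fold under all 17 alternatives, Klf4 under 11 and Irf1 under 15. Spi1, which encodes PU.1, the master factor of myeloid cells, differed little (256/277 CPM, 0.11), as did Cebpa (50.2/49.5 CPM, -0.02), which drives entry to the granulocyte and monocyte path, and Zeb2 (845/875 CPM, 0.05). Irf8 itself was lower in KO (-0.31), inside cells chosen for having it. The Klf4 ratio was not of 1 sign along the Mpo range: it was -0.80 (-1.20 to -0.40), 0.18 (-0.25 to 0.63) and -1.33 (-1.89 to -0.76) in the low, middle and high parts.

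Of 33 cytokine and chemokine receptor genes, 23 were measured, 3 were higher past 1.5-fold (1.19% of all genes) and none lower (0.556%), with a median of 0.14. Tgfbr1, the type I receptor of TGF-beta, was at 35.5 CPM in WT and 79.7 CPM in KO, a ratio of 1.16 (0.99 to 1.34), and the difference was of like size in the 3 Mpo parts, at 1.34 (1.06 to 1.64), 1.11 (0.81 to 1.41) and 1.09 (0.76 to 1.43). Il4ra, the interleukin 4 receptor chain, was at 19.9 CPM in WT and 31.4 CPM in KO with 0.65 (0.41 to 0.90). Csf2rb, the chain shared by the receptors of GM-CSF, interleukin 3 and interleukin 5, was at 66.4 CPM in WT and 103 CPM in KO with 0.63 (0.50 to 0.77), or 0.45 with thinning before the rule. Other receptors differed less. Csf3r, the G-CSF receptor, was at 67.3/95.9 CPM (0.51), Ccr2 at 176/219 CPM (0.31), Csf1r at 117/128 CPM (0.13) and Flt3 at 39.6/30.9 CPM (-0.36). Of 16 genes of the TGF-beta pathway 8 were measured, all 8 had ratios above the median of all genes, and 2, Tgfbr1 and the coreceptor gene Eng (0.60), passed 1.5-fold upwards (1.19% of all genes), Eng under 10 of 17 alternatives; the median was 0.26. Smad2 and Smad3, the receptor's signalling proteins, had ratios of 0.22 and 0.31.

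Monocyte effector genes were mixed. Of 41 measured of 50 listed, 6 were higher past 1.5-fold (1.19% of all genes) and none lower (0.556%), with a median of 0.14, which was 0.02 with the cells thinned to 10000 UMIs before the rule. Hp, which encodes haptoglobin, was at 46.9 CPM in WT and 119.9 CPM in KO, a ratio of 1.35 (1.21 to 1.5). Wfdc17, a secreted protein gene of activated myeloid cells, was at 12.1 CPM in WT and 28.3 CPM in KO, with 1.23 (0.93 to 1.53). Ms4a6d was at 16.5 CPM in WT and 30.01 CPM in KO with 0.86 (0.60 to 1.13), or 0.40 with thinning, and Ms4a4c, Ctsc and Lst1 (0.59) were the other 3. On the other side S100a10, Tmsb10 and Lgals1, which bind calcium-dependent membrane proteins, actin and galactosides, had ratios of -0.40, -0.36 and -0.35. Hp was in more KO than WT progenitors: after thinning to 5000 UMIs, 18.4% of WT (13.9% to 23.6%) and 39.3% of KO cells (34.9% to 43.8%) had a UMI, against 3.70% and 3.51% of erythroid cells. Unthinned, the progenitors' shares were 48.5% and 75.1%.

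The lysozyme gene Lyz2 (1861 CPM in WT and 2497 CPM in KO, 0.42) differed in opposite directions along the Mpo range. In the low part it was at 1621/3396 CPM, a ratio of 1.07 (1.02 to 1.11). The middle part had 1719/2281 CPM, a ratio of 0.41 (0.36 to 0.45), and the high part 2354/2006 CPM, a ratio of -0.23 (-0.27 to -0.19). Its ratio over all progenitors was 0.17 with the cells thinned before the rule and 0.67 with the Elane limit at 10. The median ratio of the effector list over the parts was 0.35, 0.10 and -0.07 in the same order.

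Of 25 measured surface and adhesion genes, 2 were higher and none lower past 1.5-fold (1.19% and 0.556% of all genes), with a median of 0.05. Both are macrophage and monocyte antigens: Itgam, which encodes CD11b, was at 26.97 CPM in WT and 46.4 CPM in KO with a ratio of 0.78 (0.58 to 0.99), and Adgre1, which encodes F4/80, at 17.7 CPM in WT and 29.7 CPM in KO with 0.75 (0.50 to 1.01), or 0.53 with thinning before the rule. Ly6c2 had no settled direction between the libraries, with a ratio of 0.20 that was -0.31 with thinning before the rule. Cd63, a lysosomal tetraspanin, was at 56.3/37.7 CPM (-0.58). Of 13 pattern recognition and Fc receptor genes, 1 was higher past 1.5-fold (1.19% of all genes), the cytosolic sensor Naip2 at 19.4/31.5 CPM (0.70), whose ratio was 0.11 with the cells thinned before the rule; the list's median was 0.14. Ly86 and the Fc receptor chain gene Fcer1g had ratios of 0.14 and -0.05.

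Granule genes held a few large ratios in short lists. Of 9 primary granule genes measured other than Elane, 1 (Ms4a3) was higher past 1.5-fold (1.19% of all genes), and the median was 0.20 (0.11 with the Mpo parts weighted alike). Prtn3, which encodes proteinase 3, was at 2289/3002 CPM (0.39) and Mpo at 2447/2797 CPM (0.19). Of the 4 secondary and tertiary granule genes measured of 19 listed, Lcn2, which encodes the iron-trapping protein lipocalin 2, was at 50.2 CPM in WT and 136 CPM in KO, a ratio of 1.43 (1.29 to 1.58), the largest of any gene at 90 CPM or more beside Prg2. It had a UMI in 20.3% of WT (15.6% to 25.6%) and 40.1% of KO progenitors (35.7% to 44.7%) after thinning to 5000 UMIs, and in 2.12% and 1.75% of erythroid cells. Unthinned, the shares were 54.1% and 75.9%. The ratio was 2.24 (1.86 to 2.63) in the low, 1.43 (1.18 to 1.68) in the middle and 0.91 (0.72 to 1.11) in the high Mpo part. Camp and Ltf, genes of mature granules, were at 1.45/1.93 and 0.31/0.121 CPM, and S100a8, which the rule limits, at 32.5/51.04 CPM. Without Lcn2 and the genes of the rule, the other 5 maturing neutrophil markers summed to 12.1 and 23.3 CPM, and their part in the ratio of Lcn2 was not tested.

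Dendritic cell and MHC class II genes were few at this level. Of 22 dendritic cell genes 5 were measured, none passed 1.5-fold, and the median was -0.08, or 0.03 with the Mpo parts weighted alike. The 5 were Ccnd1, Flt3, Runx2, Tcf4 and Bst2, and the median is the ratio of Runx2. Bst2 is also in the interferon list. Of 12 class II genes 5 were measured and none passed; H2-Ab1 was at 18.9/26.6 CPM (0.49) and H2-DMa at 149.8/115 CPM (-0.38). All 18 MHC class I genes were measured, 2 were higher past 1.5-fold and none lower (1.19% and 0.556% of all genes), and the median was 0.25. H2-T22, a nonclassical class I gene, was at 34.8 CPM in WT and 58.2 CPM in KO with 0.74 (0.56 to 0.92), and Nlrc5, the transactivator of class I genes, at 23.4 CPM in WT and 36.04 CPM in KO with 0.63 (0.40 to 0.85), past 1.5-fold under 14 of 17 alternatives. B2m, the shared light chain, was at 970.4/1298 CPM (0.42) and H2-K1 at 705/909 CPM (0.37).

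The interferon response list had the highest median of the 21 lists. Of 74 genes 27 were measured (at 20 CPM or more, as for all lists), 8 were higher in KO past 1.5-fold (against 1.19% of all genes) and none lower, all 27 lay above the median of all genes, and the list's median was 0.45 against 0.02. Ifitm1, an interferon-induced transmembrane protein that restricts viruses, was at 15.8 CPM in WT and 59.5 CPM in KO, a ratio of 1.91 (1.67 to 2.17). Isg15, a ubiquitin-like modifier, was at 11.9 CPM in WT and 37.1 CPM in KO, a ratio of 1.64 (1.35 to 1.94). Slfn2, a schlafen gene of immune cell quiescence, was at 39.9 CPM in WT and 79.9 CPM in KO, with 1.0 (0.84 to 1.17). Ifi27l2a was at 59.6 CPM in WT and 118 CPM in KO, with 0.99 (0.85 to 1.13), and Parp14, a mono-ADP-ribosyltransferase, at 21.3 CPM in WT and 38.9 CPM in KO, with 0.87 (0.64 to 1.10). These 5 passed 1.5-fold under all 17 alternatives. Lgals3bp (0.64), a secreted glycoprotein, and Dtx3l (0.59), a ubiquitin ligase, also passed 1.5-fold. Ly6e and Ifitm2, the most abundant of the list beside Ifitm3, had ratios of 0.20 and 0.15.

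The interferon difference was present in each part of the Mpo range. The list's median ratio was 0.69 in the low, 0.47 in the middle and 0.40 in the high part. Isg15 had ratios of 2.61 (2.14 to 3.12), 0.83 (0.33 to 1.36) and 1.20 (0.63 to 1.80), and Ifitm1 of 1.94 (1.56 to 2.34), 1.74 (1.36 to 2.15) and 2.51 (1.88 to 3.21). Isg15 was concentrated in some cells: 32 of 481 KO progenitors (6.65%) had 5 or more UMIs of it and held 381 of its 616 UMIs, and 6 of 266 WT progenitors (2.26%) held 49 of 115. After thinning, Isg15 had a UMI in 3.76% of WT (1.82% to 6.80%) and 10.2% of KO progenitors (7.63% to 13.2%). Erythroid cells had higher Isg15 shares, 6.88% (3.71% to 11.5%) in WT and 19.3% (10.0% to 31.9%) in KO. These intervals overlap those of the progenitors in each library, and the KO share was the higher one in erythroid cells as well. Ifitm1 had a UMI in 6.02% of WT (3.48% to 9.58%) and 20.4% of KO progenitors (16.9% to 24.3%) after thinning. In erythroid cells the shares were 4.76% (2.20% to 8.85%) and 7.02% (1.95% to 17.0%), and the intervals overlap those of the progenitors in each library, in KO only at the edge. Unthinned, the progenitors' shares were 28.9% and 52.2%. The receptor genes Ifnar1 and Ifnar2 had ratios of 0.45 and -0.09. The list's median was 0.53 in the Lgals3-rich set, 0.31 in the Elane-rich set and 0.62 in the remaining cells, all from the same 2 libraries. Whether the difference in list median between the sets exceeds chance was not tested.

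Promoters of 5 interferon list genes are shown for the letters of the interferon-stimulated response element, 2 copies of GAAA with 2 bases between them on either strand, to which factors of the interferon response bind, and for the composite element given above. Windows are from RefSeq (GRCm38.p6), written along the gene's strand, with the match in capitals (TTTC first where it lies on the other strand). The Isg15 window is at chr4:156200845-156200914 (minus strand), with 3 matches in the 250 bases, of which the one 66 to 57 bases before the start is in capitals. The Irgm1 window is at chr11:48871421-48871474 (minus strand), with the capitals 24 to 15 bases before the start. The Gbp7 window is at chr3:142530253-142530322 (plus strand), 53 to 44 bases, and the Trim30a window at chr7:104465194-104465259 (minus strand), 36 to 27 bases. The Slfn2 window, at chr11:83065023-83065092 (plus strand), holds the composite element 59 to 50 bases before the start.
Isg15: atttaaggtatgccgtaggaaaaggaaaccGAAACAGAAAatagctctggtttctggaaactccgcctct
Irgm1: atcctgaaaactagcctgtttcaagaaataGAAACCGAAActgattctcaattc
Gbp7: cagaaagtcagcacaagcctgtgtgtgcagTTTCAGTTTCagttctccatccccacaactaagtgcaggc
Trim30a: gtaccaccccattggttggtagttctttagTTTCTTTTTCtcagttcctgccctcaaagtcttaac
Slfn2: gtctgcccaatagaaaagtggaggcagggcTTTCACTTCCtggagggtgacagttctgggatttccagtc
The response element was found in 9 of 22 interferon list promoters (40.9%), against 166 of the 5056 promoters of genes at 20 CPM or more in the progenitors (3.28%) and 936 of all 27025 (3.46%). Of the 8 genes past 1.5-fold, 5 had a promoter in the table and 1, Isg15, held it. Irgm1, Gbp7 and Trim30a, guanosine triphosphatases and an antiviral ligase, had ratios of 0.48, 0.44 and 0.55. Ifitm1 held none in this window, which says only that these letters are not in it.

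Signalling and cell cycle genes differed less as lists than as single genes. Of 24 JAK-STAT and MAP kinase pathway genes measured, 1 was higher (Pim1) and 1 lower past 1.5-fold (1.19% and 0.556% of all genes), with a median of 0.05. Ccnd2, the D-type cyclin induced by growth factors, was at 96.3 CPM in WT and 48.1 CPM in KO, a ratio of -1.0 (-1.14 to -0.86) that passed 1.5-fold under all 17 alternatives and lay at -0.66 (-0.86 to -0.46), -1.24 (-1.49 to -0.99) and -0.90 (-1.21 to -0.58) in the Mpo parts. Ccnd1 was at 88.3 CPM in WT and 60.7 CPM in KO (-0.54), while Ccnd3, the third D-type cyclin, was at 109 CPM in WT and 129 CPM in KO (0.24). Of 16 inflammatory genes 1 was higher past 1.5-fold (1.19% of all genes), again Pim1, and the median was 0.04; Rel and Ccl3, an NF-kB subunit and a chemokine, had ratios of 0.37 and -0.33. None of 42 G1/S genes or 34 G2/M genes passed 1.5-fold, and their medians were -0.13 and -0.15. After thinning to 5000 UMIs, 63.5% of WT (57.4% to 69.3%) and 59.3% of KO progenitors (54.7% to 63.7%) had 5 or more G2/M UMIs, with overlapping intervals.

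Myc target genes had the lowest median of the 21 lists. None of 28 passed 1.5-fold, 1 of 28 lay above the median of all genes, and the list's median was -0.22, or -0.13 without cells that had 20 or more UMIs of foreign markers. Gnl3 and Hspd1, a nucleolar GTPase and a mitochondrial chaperone, were at 151/121 CPM (-0.32) and 372/298 CPM (-0.32). The list's median was -0.46 in the low Mpo part, -0.13 in the middle and -0.03 in the high part. Myc itself was at 69.7/80.7 CPM (0.21). Glycolysis and oxidative phosphorylation genes (13 and 31 measured) had medians of -0.03 each and none past 1.5-fold. Of 19 chaperone and unfolded protein response genes none passed, with a median of 0.14; Xbp1, its transcription factor, had a ratio of 0.44.

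Genes of stem and early progenitor cells split. Of 18 measured of 32 listed, 3 were higher past 1.5-fold and none lower (1.19% and 0.556% of all genes), and the median of 0.02 equalled that of all genes. Pbx3 and Cpa3 are given above, and Ikzf2, the lymphoid factor Helios, was at 66.96 CPM in WT and 111 CPM in KO with 0.73 (0.60 to 0.86), past 1.5-fold under 15 of 17 alternatives. Meis1, a partner of Pbx proteins, was at 106 CPM in WT and 103 CPM in KO (-0.04). Cd34, Angpt1 and Cd27 had ratios of -0.13, -0.15 and -0.51, and Kit of 0.30. The higher Pbx3 was therefore not shared by Meis1 in these cells.

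**Figure D5:**
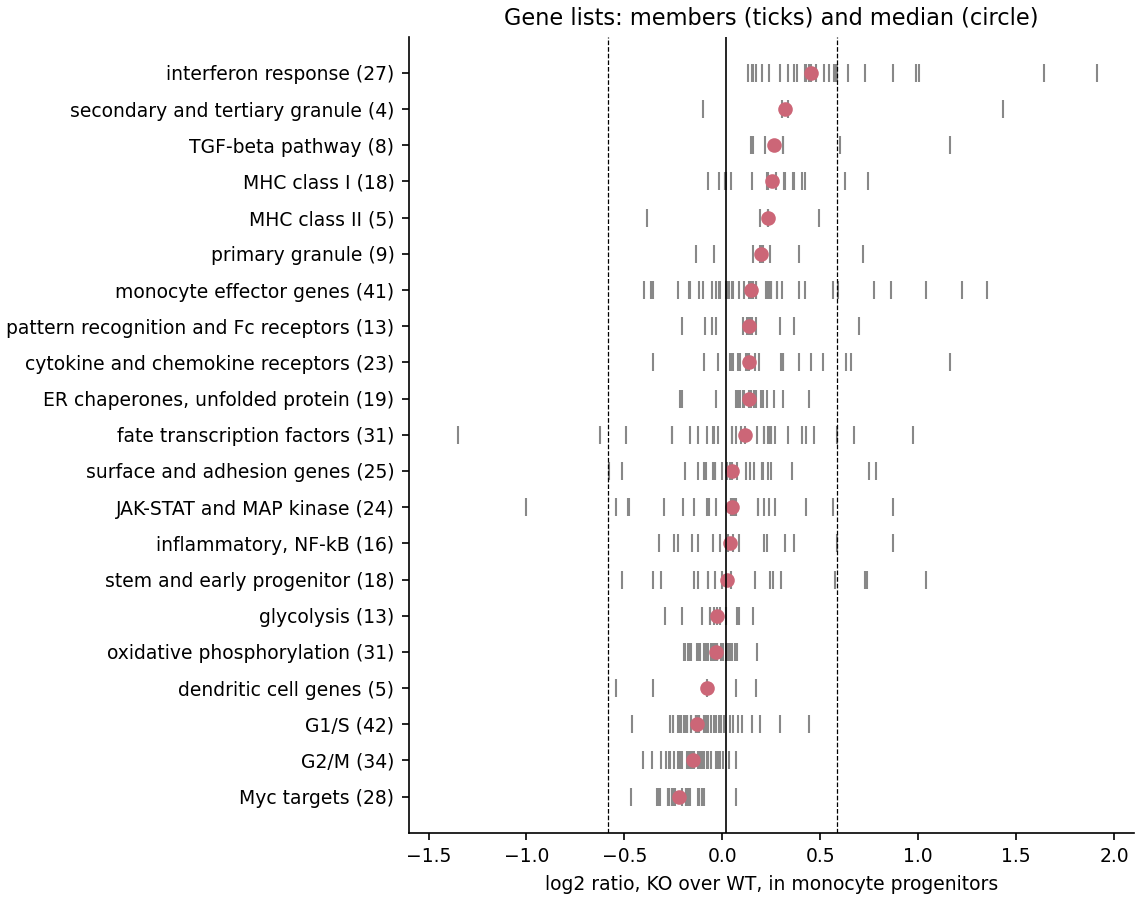
log2 ratio of KO over WT in the monocyte progenitors for each measured gene (ticks) of 21 lists, with the list median (circles) and the number of genes measured in brackets. The solid line is the median of all 6295 genes (0.02) and the dashed lines are 1.5-fold. The interferon response list stands at 0.45 with all ticks right of the solid line, and the Myc target list at -0.22.

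The other sets of cells, which come from the same 2 libraries and so are no replicates, gave these ratios for the genes that stood out. Pbx3 was at 1.04 in the progenitors, 0.82 in the Lgals3-rich set, 1.07 in the Elane-rich set and 0.94 in the remaining cells. Tgfbr1 was at 1.16, 1.16, 0.74 and 1.10, and Lcn2 at 1.43, 1.14, 1.26 and 1.21, in the same order. These 3 were higher in KO in all 4 sets. Pim1 was at 0.87, 0.24, 0.80 and 0.85, lowest in the Lgals3-rich set. Ms4a3 was at 0.72, 0.16, 0.22 and -0.29, and Fut8, a fucosyltransferase gene, at 0.59, -0.02, 0.16 and 0.19. Ccnd2 was at -1.0, -0.70, -1.15 and -0.18, and Egr1 at -1.35, -0.94, -0.79 and -0.23. Whether any of these ratios differs between the sets was not tested.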

How the data were processed

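Sorted GFP-positive, lineage-negative marrow cells were profiled with the Chromium Next GEM 3′ kit, 1 library per genotype. The deposited matrices hold raw UMI counts per gene and barcode, not normalized; per the file headers Cell Ranger 6.0.2 wrote them, whereas version 3.0.1 and GRCm38 stand in the submitters' processing notes. The sources used here give no annotation release. GENCODE M21 held 32158 of the 32285 gene IDs and gave positions, and RefSeq (GRCm38.p6) promoters.

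UMIs of the progenitors were summed per library and scaled to CPM. Genes at a mean of 20 CPM or more were compared as log2 ratios with exact conditional binomial intervals. In counts simulated with counting error only, without variation between cells, the intervals held the true ratio for 95.5% of 6095 unchanged genes. That simulation follows the model of the intervals, so it checks the calculation and not how well they suit these cells. Shares carry Clopper-Pearson and their differences Newcombe 95% intervals. Where 0 cells were counted, the share said to be allowed is instead 3 counts of the cells. For 0 of 57 this is 5.26%, and the Clopper-Pearson upper limit is 6.27%. Droplet counts without replicates allow no test, and intervals cover counting error only. For shares of cells with a UMI, cells were thinned to 5000 UMIs. Erythroid cells had 5 or more Car1 and 2 or more Klf1 UMIs.

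Named were the rule genes and markers, Phf6 and Runx1, the 12 highest and 12 lowest ratios at 100 CPM or more, the 15 genes at 100 CPM or more that were highest over the remaining cells (pseudocount 0.5 UMIs; those at 20 CPM or more are named beside them) and up to 5 genes per list by size of ratio. Mitochondrial, ribosomal protein, haemoglobin, sex-linked, immunoglobulin, T cell receptor and predicted genes were left out of rankings. Other genes named for background, such as Spi1, Cebpa or Ifnar2, were chosen after their values were seen. The cells and lists were chosen with earlier results of these data known. Alternatives covered filters, doublets (Scrublet in scanpy 1.11.5, top scores removed, written below as without doublets), thresholds, thinning, scaling (edgeR 4.0.16 TMM) and weighting. Some genes are not reported here. Genes with near-identical relatives (Ms4a, Ifitm, Gbp, Trim30, Ifi and MHC families, histones) may share reads.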

Additional observations from a re-analysis of the deposited data

How the results depend on the processing

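No paired analysis was possible because each genotype has 1 library and no result comes from a test. The share difference of 4.10 points was 3.0 with stricter F13a1 and Irf8 minimums, 2.02 with cells thinned to 10000 UMIs and shallower cells left out, 2.36 and 5.22 with Elane limits of 10 and 40, and 12.1 as a share of F13a1 and Irf8 cells. It was 0.423 without cells that had 5 or more UMIs over other cell types' markers, which left 3 WT and 24 KO cells, too few for ratios, so a limit of 20 UMIs was added. The Elane and Lgals3 limits, that limit and leaving out each gene's top cell were chosen after seeing the data. The counts of 75 genes higher and 35 lower became 145 and 72 with thinning, 30 and 12 at a minimum of 50 CPM, and 1595 and 2105 with no minimum; 57 were lower with looser minimums. Higher genes were 68.2% of those past 1.5-fold, 52.9% with looser minimums and 43.1% with no minimum. With no CPM minimum the list medians were 0.29 (pattern receptors), 0.16 (surface), 0.77 (interferon) and 0.15 (inflammatory). Thinning gave 0.023 (monocyte effector) and -0.30 (G2/M), and the 50 CPM minimum gave 0.87 (secondary granule). The primary granule median was 0.14 without doublets, 0.24 with looser minimums, 0.15 with thinning, with an Elane limit of 40 and as a mean per cell, and 0.11 with Mpo parts weighted alike. The dendritic median was -0.21 without doublets, -0.23 with an Elane limit of 10, -0.28 without cells of another class, -0.24 as a mean per cell and 0.028 with Mpo parts weighted alike. The Myc target median was -0.14 without doublets and -0.13 without cells of another class. Pf4 reversed to -0.078 without doublets, -0.53 with looser minimums and -0.044 without cells of another class. The other 337 list values lay inside the list's median counting interval, which does not mean that their sign held. The stem and early progenitor median ran from -0.087 to 0.134 and kept its sign under 13 of 17 alternatives, the JAK-STAT and MAP kinase median under 16. The other 33 values were counts within 1.5-fold of the main count or share differences inside the main interval. Of 2278 values for named genes 260 moved and 3 reversed. The cause of these shifts was not tested.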

Other observations

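Among genes between 20 and 100 CPM that belong to none of the lists, some had large ratios of KO over WT in the progenitors; they were chosen after their values were seen. Commd10, of a family of proteins that sort membrane cargo, was at 31.3 CPM in WT and 88.05 CPM in KO, a ratio of 1.49 (1.31 to 1.67), and 1.504 without the top cell of each library. Rnf150, which encodes a ring finger protein, was at 30.2 CPM in WT and 12.9 CPM in KO, a ratio of -1.23 (-1.49 to -0.97). Car2, a carbonic anhydrase gene abundant in red cell precursors, was at 105 CPM in WT and 17.96 CPM in KO, a ratio of -2.55 (-2.74 to -2.37), beside the erythroid marker sums of 176 and 28.1 CPM in the same cells. Mcpt8 had the highest ratio of the genes at a mean of 20 CPM or more, 2.32, which was 0.20 without the top cell of each library. Whether the other cell types whose markers were found in these cells have a part in the ratio of Commd10 or Rnf150 was not tested.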
